A study of Mus musculus with 6 samples.

Results

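The family of miR-15, miR-16, miR-195a, and miR-497a was followed, both strands of its hairpins included, in the small intestine of mice that lack the circular RNA Cdr1as and of their littermates. Members were taken by name from the deposited table of normalized array values, in which 9 of the 10 listed miRNAs have a row, out of 1831 miRNAs in all. These were the 5p strands mmu-miR-15a-5p, mmu-miR-15b-5p, mmu-miR-16-5p, mmu-miR-195a-5p, and mmu-miR-497a-5p, the 3p strands mmu-miR-15b-3p, mmu-miR-195a-3p, and mmu-miR-497a-3p, and mmu-miR-195b, given below without the prefix for mouse. The 10th, mmu-miR-15a-3p, was not analysed here. Total RNA was labelled with the dye Cy3 and hybridized to 6 one-colour small RNA arrays, 1 for each of 3 littermates (wildtype in the labels) and 3 Cdr1as-/- mice. In the Cdr1as-/- strain, made on the C57BL/6J background, the Cdr1as locus had been removed from the whole animal with CRISPR/Cas9 and a pair of guide RNAs, so the deletion was not limited to the epithelium. No injury or drug is named for either group, the labels give the tissue as small intestine where the study's text has its mucosa, and age is not given in the sources used here. The study's methods state that animals went without food, but not without water, before experiments. The p-values set a difference between the groups against the spread between these samples.

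A microRNA is cut from a hairpin precursor as a duplex, of which the guide strand is usually kept in an Argonaute protein and the other, the passenger strand, is mostly degraded. The guide strand finds messenger RNAs mainly through its seed near the 5′ end, so miRNAs with the same seed share many predicted targets. This family is known for holding back the cell cycle through targets such as cyclins, and miR-195a has been studied as a restraint on growth and repair of the intestinal epithelium.

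The 6 members that share a seed are shown first because they differ only in the bases outside it. Sequences are the mature miRNAs in RefSeq on build GRCm38.p6, which held all 9 members and matched the array table's own sequence in 9 of 9. Capitals mark the seed, bases 2 to 8 counted from the 5′ end.
miR-15a-5p: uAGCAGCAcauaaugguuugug
miR-15b-5p: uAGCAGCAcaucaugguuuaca
miR-16-5p: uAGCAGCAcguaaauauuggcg
miR-195a-5p: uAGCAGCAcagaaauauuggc
miR-195b: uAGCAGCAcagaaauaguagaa
miR-497a-5p: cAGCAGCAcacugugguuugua

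Aligned from the 5′ end without gaps, miR-16-5p and miR-195a-5p were identical at 19 of 21 bases, miR-195a-5p and miR-195b at 18 of 21, and miR-15a-5p and miR-15b-5p at 18 of 22. The least alike were miR-16-5p and miR-497a-5p, identical at 11 of 22. How much of a probe's signal came from another member was not tested.

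The 3p strands carry other seeds, again in capitals, and so belong to the family by their hairpin and not by their seed.
miR-15b-3p: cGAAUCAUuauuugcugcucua
miR-195a-3p: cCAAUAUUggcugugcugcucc
miR-497a-3p: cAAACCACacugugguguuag

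The genes lie in pairs. Mir15b and Mir16-2 are on chromosome 3, plus strand, at chr3:69009772-69009835 and chr3:69009902-69009996. Mir16-1 at chr14:61631880-61631972 and Mir15a are neighbours on the minus strand of chromosome 14, so miR-16-5p is read from either cluster and its signal cannot be assigned to one of them. Mir497 at chr11:70234717-70234800 and Mir195a at chr11:70235042-70235135 are on the plus strand, with Mir195a beginning 242 bases after the end of Mir497. Mir195b stands apart at chr2:56785811-56785907. Mir497b is annotated on the minus strand across all 84 bases of the Mir497 hairpin. The hairpins of the chromosome 11 pair are given with both mature strands in capitals, since their strands are compared further on.
Mir195a: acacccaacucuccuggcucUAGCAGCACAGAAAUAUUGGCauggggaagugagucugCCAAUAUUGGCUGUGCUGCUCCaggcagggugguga
Mir497: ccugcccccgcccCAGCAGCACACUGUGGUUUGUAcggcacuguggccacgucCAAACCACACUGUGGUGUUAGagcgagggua

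The array of littermate 3 stood apart. Before any scaling, the median scanner signal of miRNA probes was 236 on it and 8.75 to 29.2 on the other 5 arrays, while the deposited values had been brought to like distributions, with a median over the 1831 miRNAs between 4.61 and 4.77 on the log2 scale on every array. On these arrays 41.5% to 100.0% of the miRNA probes were well above background, with the lowest share in Cdr1as-/- mouse 2 and the highest in littermate 3. The 3 littermates and Cdr1as-/- mouse 1 shared slide 1, Cdr1as-/- mice 2 and 3 shared slide 2, and littermate 1 was scanned in a run of its own. Each comparison is therefore given with and without littermate 3. As for the tissue, the 8 epithelial markers, miR-192, miR-194, miR-215, and the miR-200 family among them, were at or above the 98.3rd percentile of the table in littermates 1 and 2. The lowest of them, miR-429-3p, was at the 81.0th percentile in littermate 3 and at the 96.8th to 98.6th in the Cdr1as-/- mice. In bulk tissue, fewer cells of a type and less RNA per cell cannot be told apart.

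Among the 5p strands, miR-16-5p, the member encoded at both clusters, gave the brightest signal. The 3 littermates, in the order of their numbers, had deposited log2 levels of 11.70, 11.77, and 8.35, and the 3 Cdr1as-/- mice had 11.30, 11.69, and 11.29, an order kept for the values that follow. Those levels placed it at the 98.1st to 99.0th percentile of all miRNAs on 5 arrays and at the 89.7th in littermate 3. miR-15b-5p, its neighbour on chromosome 3, followed with 11.20, 11.15, and 6.79 in the littermates and 10.23, 11.12, and 10.30 in the Cdr1as-/- mice. In both miRNAs the group ranges overlapped only because littermate 3 was far below every other mouse.

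miR-15a-5p, from the chromosome 14 cluster, read 9.08, 9.38, and 6.99 in the littermates and 8.40, 9.21, and 9.03 in the Cdr1as-/- mice. miR-195a-5p, the guide strand of miR-195a, read 8.94, 9.06, and 5.10 against 7.68, 9.07, and 7.90. miR-497a-5p, its cluster neighbour, read 5.90, 6.07, and 4.47 against 5.26, 6.01, and 4.99. For miR-195a-5p, Cdr1as-/- mouse 2 lay at the level of littermates 1 and 2 and the other Cdr1as-/- mice lay more than 1 log2 unit below them; miR-497a-5p split the mice alike with smaller gaps. miR-15a-5p differed in that Cdr1as-/- mouse 3 lay close to littermate 1.

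All 5 probes of miR-15a-5p, miR-15b-5p, miR-16-5p, and miR-195a-5p were well above background on all 6 arrays, and none was saturated. For miR-497a-5p this held except in Cdr1as-/- mouse 2, where 3 of 5 probes were. Brightness also depends on how well a probe binds, so an order of signals is not an order of copies. As signals, miR-16-5p was above miR-15b-5p on 6 of 6 arrays, miR-15b-5p above miR-15a-5p on 5 of 6, and miR-15a-5p above miR-195a-5p on 6 of 6, there by as little as 0.13. The exception for miR-15b-5p was littermate 3.

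**Figure D1:**
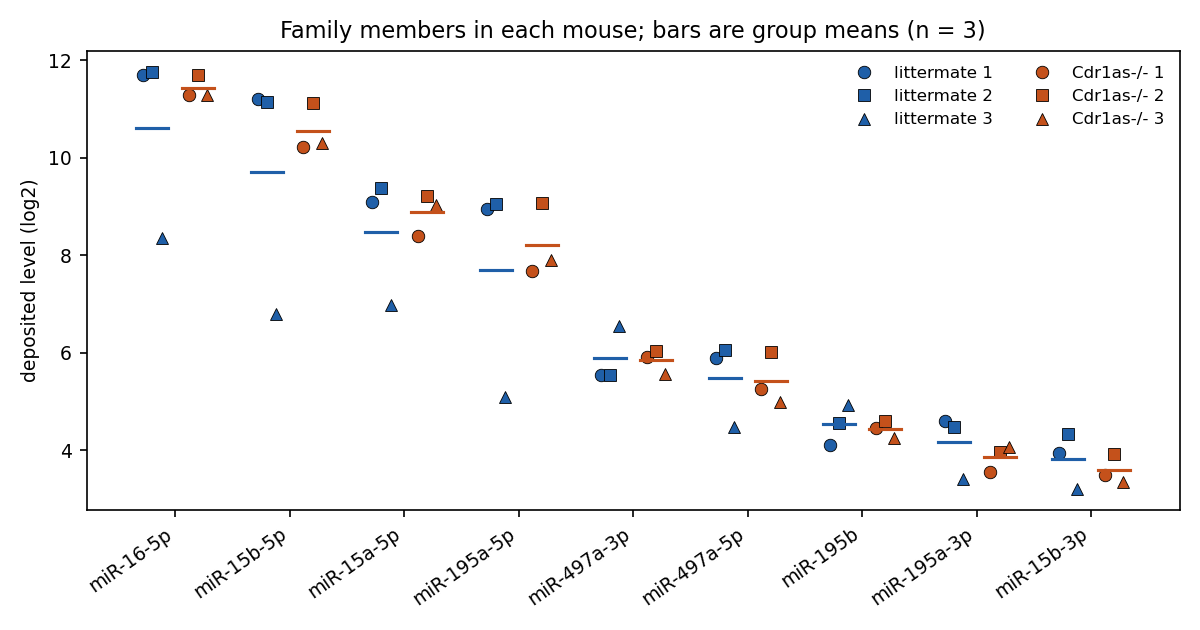
Deposited log2 level (vertical axis) of the 9 family members (horizontal axis, ordered by mean), with a symbol for each of the 3 littermates (blue) and 3 Cdr1as-/- mice (orange) and a bar at each group mean. Littermate 3 is the lowest mouse for every 5p strand, at 5.10 for miR-195a-5p against 7.68 to 9.07 in the other mice, and the highest for miR-497a-3p at 6.56.

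The remaining members were dim. miR-195b, which has the seed of miR-195a-5p and a gene of its own on chromosome 2, read 4.11, 4.55, and 4.93 in the littermates and 4.46, 4.60, and 4.25 in the Cdr1as-/- mice, so its groups overlapped. miR-195a-3p read 4.60, 4.48, and 3.42 against 3.56, 3.96, and 4.06. In Cdr1as-/- mouse 2, miR-195b and miR-195a-3p had no probe out of 5 well above background, and their values there are readings at background.

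miR-15b-3p was the dimmest member, at 3.94, 4.33, and 3.21 in the littermates and 3.49, 3.93, and 3.36 in the Cdr1as-/- mice. Only 1 of its 4 probes was well above background in littermate 1 and in Cdr1as-/- mice 2 and 3. miR-497a-3p read 5.55, 5.54, and 6.56 in the littermates and 5.91, 6.04, and 5.57 in the Cdr1as-/- mice. Littermate 3 was its highest value, as for miR-195b, and its 5 probes were well above background on every array. As signals, miR-497a-3p was above miR-497a-5p on 4 of 6 arrays, so these neighbours in the order did not differ beyond the spread between mice.

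Loss of Cdr1as was compared with its presence first over all 6 arrays. No family member differed by limma, with an adjusted p of 0.99997 for each of the 9, and 0 of the 1831 miRNAs (0.0%) passed an adjusted p of 0.05. At an unadjusted p of 0.05, 4 miRNAs of the table (0.218%) were lower in Cdr1as-/- mice and 2 (0.109%) were higher, with no member among them. The difference, Cdr1as-/- minus littermate, was 0.84 (SE 1.21) for miR-15b-5p, 0.82 (SE 0.94) for miR-16-5p, 0.52 (SE 1.12) for miR-195a-5p, and 0.39 (SE 0.67) for miR-15a-5p on the log2 scale. Their littermate means carried the spread of littermate 3, as in 7.70 ± 2.26 for miR-195a-5p against 8.22 ± 0.75 in Cdr1as-/- mice (SD, n = 3 each). The other 5 members ranged from -0.30 for miR-195a-3p to -0.04 for miR-497a-3p. The median was -0.04 over the 9 members and -0.07 over all miRNAs. By exact two-sided permutation the members had p from 0.6 to 1.0, where 3 mice against 3 cannot go below 0.1. In none of the 9 did the Cdr1as-/- mice all lie below the littermates, which 50 miRNAs (2.73%) of the table did, or all above, which 8 (0.437%) did.

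Without littermate 3, each of the 5p strands was lower in Cdr1as-/- mice, and again none passed the adjusted threshold. The difference was -0.79 (SE 0.39) for miR-195a-5p, a fold of 0.580, -0.63 (SE 0.31) for miR-15b-5p, -0.56 (SE 0.32) for miR-497a-5p, -0.35 (SE 0.30) for miR-15a-5p, and -0.31 (SE 0.25) for miR-16-5p. Their limma adjusted p ranged from 0.388 to 0.491. Of the passenger strands, miR-195a-3p differed by -0.68 (SE 0.25, unadjusted p = 0.0254 and adjusted p = 0.320 from limma) and miR-15b-3p by -0.54 (SE 0.27), whereas miR-497a-3p was higher by 0.30 (SE 0.25). miR-195b was higher by 0.11 (SE 0.26). Among the 1831 miRNAs, 0 (0.0%) passed the adjusted threshold, and 192 (10.5%) were lower and 50 (2.73%) higher at an unadjusted p of 0.05, so 1 member of 9 was read against about that share of all miRNAs.

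The lower values of the 5p strands lay mostly in Cdr1as-/- mice 1 and 3. Relative to the mean of littermates 1 and 2, the median over the 5p strands was -0.84 in Cdr1as-/- mouse 1, -0.03 in mouse 2, and -0.87 in mouse 3. Of the 5, every one lay below that mean in mice 1 and 3, and 3 in mouse 2. The strands were not alike in this: miR-15a-5p lay at -0.84 in mouse 1 but -0.20 in mouse 3, and miR-195a-3p lay at -0.98, -0.58, and -0.48 in mice 1, 2, and 3. Over the 157 other miRNAs with a mean level above 8 in littermates 1 and 2, the same medians were -0.49, 0.05, and -0.32, with 104, 67, and 100 of them below the littermate mean, and over all 1831 they were 0.15, 0.02, and 0.01. The medians of these bright miRNAs were thus also lowest in mice 1 and 3, though smaller in size and with the rest of them at or above the littermate mean. In littermate 3 the median was -3.39 for the 5p strands and -1.93 for the bright miRNAs.

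All 3 Cdr1as-/- mice lay below littermates 1 and 2 for miR-15b-5p, miR-16-5p, miR-15b-3p, and miR-195a-3p, 4 of 9 members, against 365 miRNAs of the table (19.9%). They lay above both for miR-497a-3p, 1 of 9, against 371 (20.3%). For miR-16-5p and miR-15b-5p the highest Cdr1as-/- mouse missed the lower littermate by less than 0.1 log2 units. The order of mice for the 2 dim strands includes readings at background. miR-195a-3p had 0 of 5 probes well above it in Cdr1as-/- mouse 2, and miR-15b-3p had 1 of 4 in littermate 1 and Cdr1as-/- mice 2 and 3. With 3 mice against 2 an exact two-sided permutation test cannot go below p = 0.2, which these 5 members reached.

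The separate probes of a member mostly ran alike. Without littermate 3, 5 of 5 probes were lower in Cdr1as-/- mice for miR-195a-5p (differences of their log2 values from -0.85 to -0.75), miR-15b-5p, miR-16-5p, and miR-195a-3p, and 4 of 5 for miR-15a-5p and miR-497a-5p. For miR-195a-3p, 0 of 5 probes were well above background in Cdr1as-/- mouse 2. With littermate 3, the same 5 probes of miR-195a-5p were all higher, by 0.03 to 0.68. The direction of its difference therefore turned with littermate 3 in every probe. Leaving out Cdr1as-/- mouse 2 as well as littermate 3, a choice made after seeing the data, brought miR-195a-5p to -1.21 (limma adjusted p = 0.0216), miR-15b-5p to -0.91 (adjusted p = 0.0322), and miR-497a-5p to -0.86 (adjusted p = 0.0427), with 223 miRNAs of the table called. These calls rested on leaving out that mouse.

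**Figure D2:**
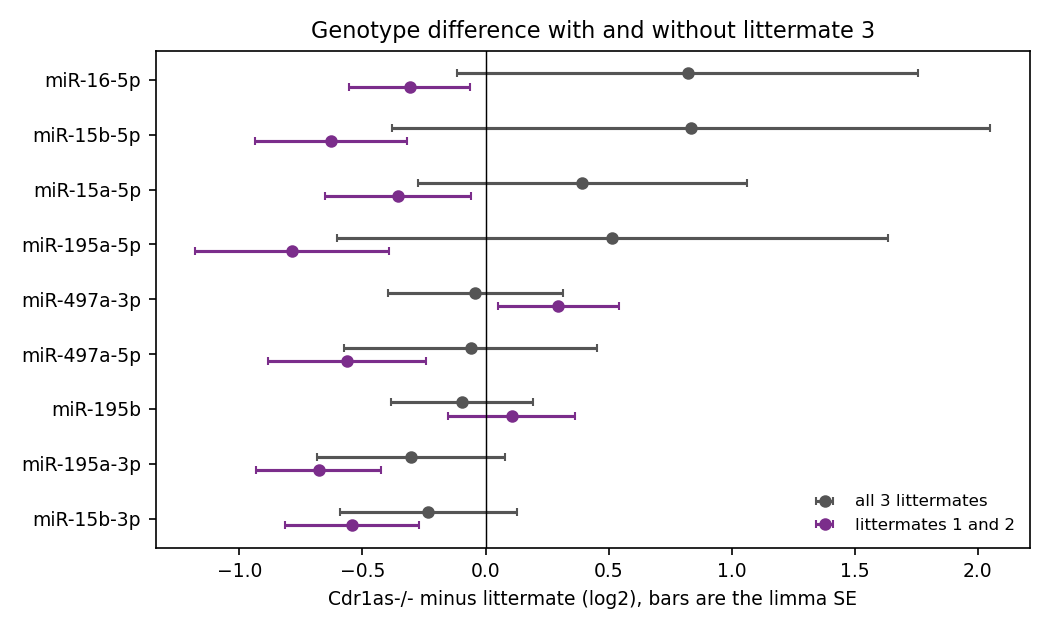
Difference, Cdr1as-/- minus littermate, on the log2 scale (horizontal axis) for each member (vertical axis), with the limma standard error, from all 3 littermates (grey) and from littermates 1 and 2 (purple). miR-195a-5p goes from 0.52 to -0.79 and miR-15b-5p from 0.84 to -0.63 when littermate 3 is left out, while miR-195a-3p is below 0 in both.

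Before scaling between arrays, the picture in the scanner output was another one. The brightest probe of miR-16-5p read 4190, 5250, and 5060 in the littermates against 5860, 4790, and 3150 in the Cdr1as-/- mice, as background-subtracted signal. That of miR-15b-5p read 1830, 2180, and 1800 against 2530, 2040, and 1060. Littermate 3, the lowest mouse for both in the deposited values, lay here within or just below the range of the other littermates, and Cdr1as-/- mouse 1 was the highest of all 6.

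miR-195a-5p also had Cdr1as-/- mouse 1 highest and mouse 3 lowest, with 458, 626, and 643 in the littermates and 698, 649, and 300 in the Cdr1as-/- mice. Cdr1as-/- mouse 1 was above littermates 1 and 2 before scaling for 9 of 9 members and below both in the deposited values for 7 of them. Its median miRNA probe before scaling was also higher, at 29.2 against 8.75 and 11.2. In its deposited values, 748 of all 1831 miRNAs and 104 of the 157 other bright ones lay below the mean of littermates 1 and 2. The shares of all miRNAs above or below both littermates were not counted, so neither count is read as particular to the family. With no scaling and without littermate 3, a setting chosen after seeing the data, the difference was -0.06 for miR-195a-5p (limma adjusted p = 0.983), -0.18 for miR-15b-5p, -0.07 for miR-16-5p, 0.14 for miR-15a-5p, and 0.24 for miR-497a-5p. Signals before scaling also carry differences in labelling and overall brightness between arrays, so neither stage alone gives the amount of a miRNA.

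The dim members differed in how far they moved with the overall brightness of an array. The brightest probe of miR-497a-3p read 19.7, 30.9, and 1230 in the littermates and 111, 51.1, and 27.4 in the Cdr1as-/- mice, and the median miRNA probe on those arrays read 8.75, 11.2, and 236, then 29.2, 14.1, and 11.2. Littermate 3 and then Cdr1as-/- mouse 1 were the highest in both series. Before scaling, littermate 3 stood at 48.6 times the mean of littermates 1 and 2 for miR-497a-3p and 28.0 times for miR-195b, but at 7.15 times for miR-195a-3p and 5.32 times for miR-15b-3p. The part of the overall brightness in the deposited level of miR-497a-3p was not tested.

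**Figure D3:**
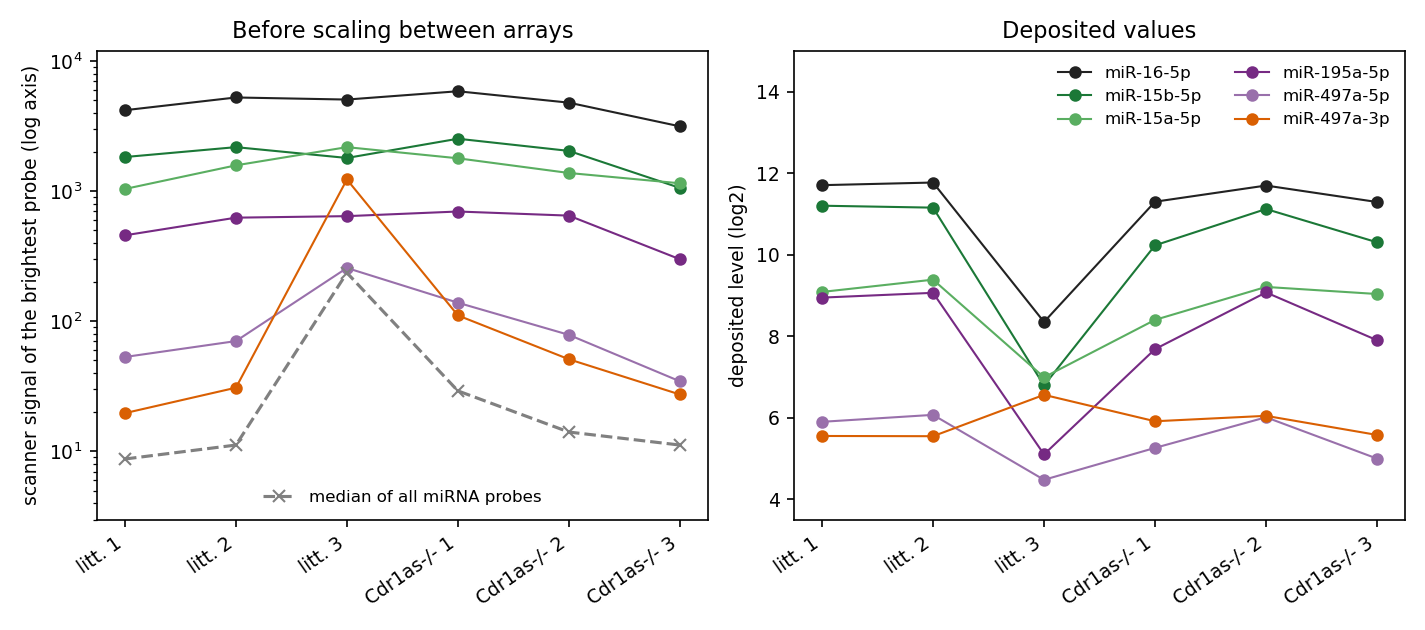
Left, scanner signal of the brightest probe (log axis) of 6 members and the median of all miRNA probes (dashed) on each array; right, the deposited log2 levels of the same members; the horizontal axis gives the mouse, and lines only join the points of one miRNA. miR-16-5p, miR-15b-5p, and miR-195a-5p have littermate 3 near the other littermates on the left, at 5060, 1800, and 643, but drop at littermate 3 on the right, while miR-497a-3p peaks there at 1230 together with the median of 236.

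Differences within an array ask whether strands of a hairpin, or neighbours of a cluster, changed relative to each other, and a shift common to both members of a pair drops out of them. miR-195a-5p exceeded miR-195a-3p by 4.34, 4.58, and 1.68 log2 units in the littermates and by 4.12, 5.11, and 3.84 in the Cdr1as-/- mice. miR-15b-5p exceeded miR-15b-3p by 7.26, 6.82, and 3.58 against 6.74, 7.19, and 6.94. Values against a 3p strand at background are limits set by that background: this holds for miR-195a in Cdr1as-/- mouse 2, with 0 of 5 probes of the 3p strand well above it, and for miR-15b in littermate 1 and Cdr1as-/- mice 2 and 3, with 1 of 4. In both hairpins the 5p strand was the brighter on 6 of 6 arrays and the gap was smallest in littermate 3.

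The strands of miR-497a were close. Its 5p strand exceeded the 3p strand by 0.35 and 0.52 in littermates 1 and 2, but was below it by a difference of -2.08 in littermate 3 and of -0.65, -0.04, and -0.58 in the Cdr1as-/- mice. Without littermate 3 the Cdr1as-/- mice thus all lay below the littermates, with a mean of -0.42 against 0.44, which is a change of -0.86 (exact two-sided permutation p = 0.2, the smallest that this form of the test can give). Of the 659 miRNAs with both strands in the table, 97 (14.7%) had this order of mice. With littermate 3 the change was -0.02 (exact two-sided permutation p = 1.0).

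The distances between cluster neighbours overlapped between the groups. miR-195a-5p exceeded miR-497a-5p by 3.05 and 2.99 in littermates 1 and 2, 0.62 in littermate 3, and 2.42, 3.06, and 2.90 in the Cdr1as-/- mice. miR-15b-5p minus miR-16-5p was -0.50, -0.62, and -1.56 against -1.07, -0.58, and -0.99. miR-15a-5p minus miR-16-5p was -2.62, -2.38, and -1.36 against -2.90, -2.49, and -2.26. The overlap held for these 3 distances with and without littermate 3. For the 6 within-array differences, exact two-sided permutation p ranged from 0.5 to 1.0 over 6 arrays and from 0.2 to 1.0 without littermate 3, and every value was 1.0 after Benjamini-Hochberg adjustment over the 6.

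**Figure D4:**
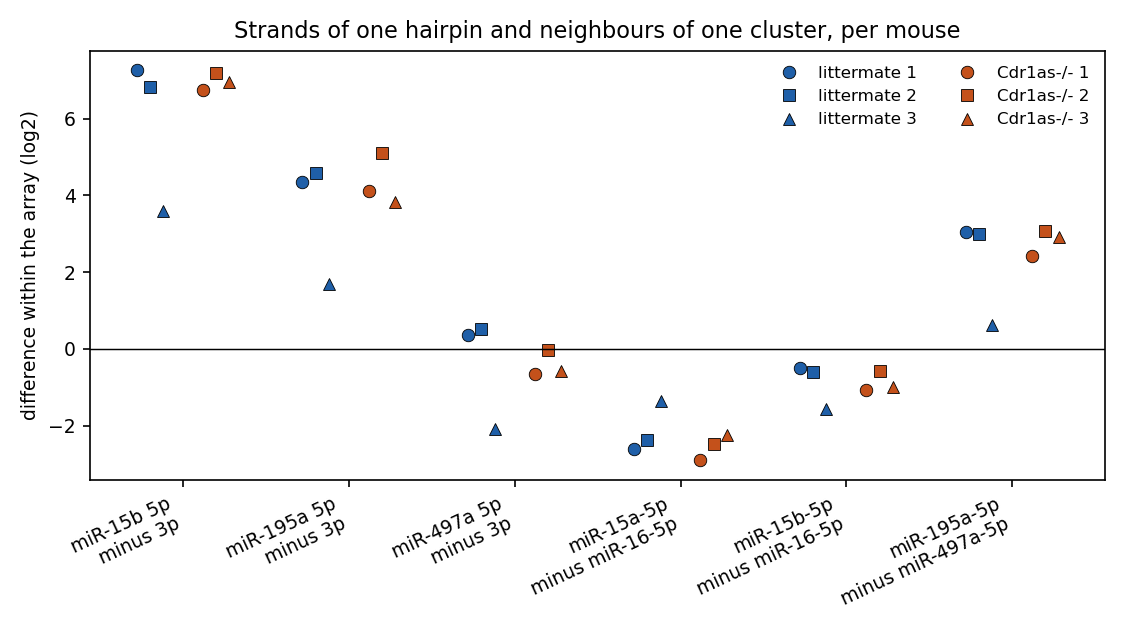
Difference between 2 members on the same array, in log2 units (vertical axis), for 3 hairpins (5p minus 3p) and 3 pairs of cluster neighbours (horizontal axis), with a symbol for each mouse. For miR-497a, littermates 1 and 2 are above 0 (0.35 and 0.52) and the other 4 mice below it, and littermate 3 lies apart from the other littermates in every column.

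The wider family was measured by 11 other miRNAs. Of these, 4 carry the same seed in RefSeq, namely miR-322-5p, miR-6342, miR-6353, and miR-6419. The RefSeq sequences used had no entry for miR-1907, so its seed was not compared and it is left out of this count. Without littermate 3 the 4 with the seed in RefSeq split evenly, with 2 lower and 2 higher in Cdr1as-/- mice and a median difference of 0.05. Most were dim: miR-6353 and miR-6419 had 0 of 5 probes well above background in Cdr1as-/- mouse 2, and miR-6353 had 1 of 5 in littermate 1. The brightest probe of miR-6342 read 27.8, 31.0, and 6110 in the littermates before scaling. The split therefore does not show how other miRNAs with that seed differed. miR-322-5p, the mouse counterpart of miR-424 on the X chromosome, read 5.43, 5.93, and 4.88 in the littermates and 5.44, 5.72, and 5.27 in the Cdr1as-/- mice. miR-6342 read 6.29, 6.02, and 9.57 against 7.34, 6.66, and 6.26, with littermate 3 far above the other mice.

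Of the 11, a pair of passenger strands stood lowest in Cdr1as-/- mice. miR-322-3p read 6.49, 6.22, and 3.67 in the littermates and 4.74, 5.59, and 5.15 in the Cdr1as-/- mice. Without littermate 3 it differed by -1.20 (SE 0.29, unadjusted p = 0.00285 and adjusted p = 0.247 from limma), and with it by -0.30 (SE 0.77). miR-16-2-3p, the passenger strand of the chromosome 3 copy of miR-16, read 5.24, 5.23, and 3.17 against 4.05, 4.77, and 4.29, a difference of -0.87 (SE 0.27, unadjusted p = 0.0115 and adjusted p = 0.270 from limma) without littermate 3. It has 2 probes, of which 1 was well above background in Cdr1as-/- mouse 2. Before scaling, its brightest probe read 16.4, 18.7, and 75.4 in the littermates against 23.5, 22.1, and 10.5. All 3 Cdr1as-/- mice lay below littermates 1 and 2 for miR-322-3p and miR-16-2-3p, 2 of the 11 against 19.9% of the table, and above them for miR-503-5p and miR-503-3p, 2 of the 11 against 20.3%. miR-16-1-3p, from the chromosome 14 copy, read 3.75, 3.85, and 3.86 against 3.74, 3.64, and 3.81, with none of its probes well above background in Cdr1as-/- mouse 2.

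miR-497b, whose gene lies across the Mir497 hairpin on the other strand, read 7.69, 7.52, and 7.91 in the littermates and 8.43, 7.44, and 8.07 in the Cdr1as-/- mice, so its groups overlapped. miR-503-5p, a neighbour of miR-322 with a seed that ends differently, read 5.54, 5.58, and 6.71 against 5.85, 6.14, and 5.60. The remaining 4, miR-503-3p, miR-1907, miR-6353, and miR-6419, had differences from -0.20 to 0.58 without littermate 3, with adjusted p of 0.388 or more from limma.

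Markers of other cells in the tissue were read beside the family. The summed level of 6 immune markers, miR-142a, miR-150, miR-155, miR-223, and miR-146a, was 12.53, 12.59, and 9.25 as log2 in the littermates and 12.13, 12.86, and 12.03 in the Cdr1as-/- mice. Its order of mice was that of miR-195a-5p in outline, with Cdr1as-/- mouse 2 at or above littermates 1 and 2 and the others below. In Cdr1as-/- mice 1 and 3, 6 of 6 immune markers were below the mean of littermates 1 and 2. That outline was not particular to immune markers. The 157 other bright miRNAs had medians of -0.49, 0.05, and -0.32 in Cdr1as-/- mice 1, 2, and 3, with 104, 67, and 100 of them below that mean. The 6 smooth muscle and mesenchyme markers summed to 11.33, 11.26, and 7.47 against 12.55, 12.25, and 10.13, and the 8 epithelial markers to 17.17, 17.16, and 16.04 against 17.05, 17.06, and 17.16. A sum is set mostly by its brightest markers. Without littermate 3, 3 of the 6 smooth muscle and mesenchyme markers were lower in Cdr1as-/- mice, with a median difference of 0.06. Among them miR-143-3p was higher by 0.44, while miR-199a-3p differed by -0.79. Of the 8 epithelial markers 7 were lower, with a median difference of -0.14. The 4 erythroid markers, of which miR-451a was the brightest, summed to 10.09, 8.31, and 6.96 against 7.69, 8.29, and 7.76. Without littermate 3, 2 of these 4 were lower in Cdr1as-/- mice, with miR-451a at -1.50, while miR-486a-5p was higher by 0.58. A deposited level does not by itself show that a marker was detected: miR-486a-5p, an erythroid marker, lay at the 11.5th percentile in littermate 2. The part of these cells in the family's values was not tested.

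The miRNAs outside the family with the pattern most like miR-195a-5p, by root mean square difference over the 6 arrays after centring each miRNA on its own mean, were miR-342-3p (0.10), miR-23a-3p (0.15), miR-19b-3p (0.16), miR-98-5p (0.18), and miR-26b-5p (0.19). For miR-16-5p they were let-7a-5p (0.08), let-7c-5p (0.12), miR-200c-3p (0.13), miR-200b-3p (0.15), and miR-200a-3p (0.17). In all 10, as in both members, littermate 3 was the lowest mouse, which follows from choosing them by likeness over all 6 arrays. Of the members, miR-15b-5p was nearest to miR-195a-5p at 0.27, whereas its hairpin partner miR-195a-3p was at 1.09 and its cluster partner miR-497a-5p at 0.87. These distances include littermate 3, which stood from the mean of littermates 1 and 2 by -3.91 for miR-195a-5p, -1.12 for miR-195a-3p, and -1.51 for miR-497a-5p. Whether they reflect shared or separate control of the partners was not tested.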

How the data were processed

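Small RNA of 3 littermates and 3 Cdr1as-/- mice was measured on one-colour arrays, grouped by genotype and number in the labels. The deposited scanner output holds Cy3 intensity per spot, background-subtracted by the authors' scanner software (Agilent Feature Extraction 11.0.1.1 per the submitters' notes) and not scaled between arrays. The deposited tables hold normalized log2 values of 10690 probes and 1831 miRNAs. How the authors normalized these is not given in the sources used here. Each miRNA value equals a summary of 1 to 5 probes, matched within 1e-06 log2 units. The comparison table also holds the authors' fold changes, p-values, q-values, and −log10 p-values, which were not used. The study's methods name another array brand than the files.

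Deposited values were compared with limma 3.58.1 (lmFit and eBayes) in R 4.3.3, with Benjamini-Hochberg adjustment over 1831 miRNAs and a threshold of 0.05, over 6 arrays and over 5 without littermate 3. Single members and within-array differences were compared by exact permutation over mice (SciPy 1.17.1). The number of arrays limits the precision. Named miRNAs were the members, the listed wider family with any miRNA of the same seed in RefSeq, and the 5 nearest patterns to miR-195a-5p and to miR-16-5p. Members, lists, and the run without littermate 3 were chosen with earlier results of these data known. Alternatives covered the probe summary, scaling (scanner signals set to the 75th percentile, normexp with an offset of 50 and quantile normalization, or unscaled), a filter on dim probes (1529 miRNAs kept), an intensity trend, the methods' t-test, replicate and slide blocks, and each array left out. The fit was tested on simulated data with known answers, drawn with the same spread on every array. No array that stands apart like littermate 3 and no slide effect was simulated, so that test does not cover them. Python 3.11.15, NumPy 2.4.6, pandas 2.3.3, and matplotlib 3.10.9 were used for summaries and plots.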

Additional observations from a re-analysis of the deposited data

How the results depend on the processing

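Over all 6 arrays the count of miRNAs at an adjusted p of 0.05 was 0 under each of 15 alternatives, and at an unadjusted p it ranged from 0 to 192 lower and from 0 to 50 higher, both highest without littermate 3. The methods' t-test gave 19 lower and 2 higher at its own threshold, 130 and 44 without littermate 3, and 0 after adjustment in both. Without littermate 3 the adjusted count, 0 as reported, was 1 with an intensity trend and 285 when slide was a block, which leaves Cdr1as-/- mouse 1 against littermates 1 and 2, and it ranged from 0 to 223 when another array was left out, with 2 without littermate 2 and 223 without Cdr1as-/- mouse 2. The unadjusted counts then ranged from 0 to 318 lower and from 12 to 316 higher, against 192 and 50.

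Of the members' values under these alternatives, 112 of 135 kept their direction and side of the threshold over 6 arrays and 115 of 126 without littermate 3. Over 6 arrays the sign turned with no scaling between arrays for miR-15a-5p (-0.11), miR-15b-5p (-0.13), miR-16-5p (-0.11), and miR-195a-5p (-0.15). It turned with the slide as a block for miR-15a-5p (-0.0877), miR-195a-5p (-0.0208), and miR-497a-3p (0.0263). It turned for miR-497a-5p with the 75th percentile (0.10) and with the brightest probe of the deposited values (0.10), and for miR-497a-3p with normexp and quantile normalization (0.00632). With each array left out in turn, the ranges were -0.35 to 0.84 for miR-15a-5p, -0.63 to 1.58 for miR-15b-5p, -0.54 to 0.0200 for miR-15b-3p, -0.31 to 1.40 for miR-16-5p, -0.79 to 1.20 for miR-195a-5p, -0.31 to 0.11 for miR-195b, -0.56 to 0.23 for miR-497a-5p, and -0.21 to 0.30 for miR-497a-3p. The difference of miR-195a-3p stayed below 0, between -0.86 and -0.09, under all 15.

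Without littermate 3 and with no scaling between arrays, the sign turned for miR-15a-5p (0.14), miR-15b-3p (0.17), miR-195a-3p (0.0905), and miR-497a-5p (0.24). For miR-195b it turned with the 75th percentile (-0.29), with normexp and quantile normalization (-0.0715), and with the brightest probe (-0.13), and ranged from -0.12 to 0.33 with a further array left out. miR-15b-5p, miR-16-5p, and miR-195a-5p stayed below 0 and miR-497a-3p above 0 under all 14, with ranges over a further array left out of -0.91 to -0.47 for miR-15b-5p, -1.21 to -0.52 for miR-195a-5p, -0.86 to -0.35 for miR-497a-5p, and -0.52 to -0.11 for miR-15a-5p. Their size moved: with the 75th percentile, miR-16-5p was -1.01, miR-15b-5p -1.11, and miR-15a-5p -0.79, and with slide as a block miR-195a-5p was -1.32, miR-15b-5p -0.95, and miR-15a-5p -0.84.

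For the within-array differences with the 75th percentile, the sign turned over 6 arrays for miR-497a 5p minus 3p (0.31) and miR-15b-5p minus miR-16-5p (-0.0201), and without littermate 3 for miR-15a-5p minus miR-16-5p (0.22). With arrays left out of the 6, the ranges were -0.0850 to 1.75 for miR-15b 5p minus 3p, -0.11 to 1.34 for miR-195a 5p minus 3p, -0.86 to 0.45 for miR-497a 5p minus 3p, -0.32 to 0.21 for miR-15b-5p minus miR-16-5p, and -0.22 to 0.99 for miR-195a-5p minus miR-497a-5p. With a further array left out of the 5, they were -0.30 to 0.13 for miR-15b 5p minus 3p, -0.48 to 0.15 for miR-195a 5p minus 3p, and -0.19 to 0.13 for miR-15a-5p minus miR-16-5p. The change of miR-497a 5p minus 3p stayed between -1.05 and -0.74 without littermate 3. The cause of each turn was not tested, beyond the arrays that each setting leaves out.

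The replicate numbers share only a number: deviations of same-numbered mice from their group means correlated at -0.76, 0.56, and -0.22. With the replicate number as a block, the difference of miR-195a-5p was 0.52 over 6 arrays and -0.63 without littermate 3, and 1 miRNA was lower and 2 higher at an unadjusted p over 6 arrays. Signal over background limits miR-195a-3p, miR-195b, and miR-15b-3p, most of all in Cdr1as-/- mouse 2. Leaving out littermate 3 turned the sign of 6 of 9 members and kept it for miR-195a-3p, miR-15b-3p, and miR-497a-5p. The share of all miRNAs whose sign turned was not counted. Of the 1831 miRNAs, 1115 were lower in Cdr1as-/- mice over 6 arrays and 786 without littermate 3. Of the 161 with a mean level above 8 in littermates 1 and 2, members included, 66 and 104 were.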
